A study of Mus musculus with 4 samples.

Results

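Imprinted genes are expressed mainly or wholly from the copy inherited from 1 parent. The genes were chosen by symbol, as 39 known mouse imprinted genes, at a time when earlier results of these data were known. Of these, 38 were measured by a probe set annotated to that gene alone, of 18193 genes on the array. Where a gene had several such probe sets, the one that was brightest on average over all 4 arrays stands for it. H19 had only a probe set annotated to H19 and Mir675 together and was not analysed here.

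The samples were common lymphoid progenitors (CLP) of C57Bl6 mice, 8 to 12 weeks of age, sorted out of the bone marrow. CLP give rise to the lymphocytes, foremost to B cells. The study split them by the level of GFP into CLP_RAGhigh and CLP_RAGlow cells, with 2 arrays of each, made from amplified RNA of 2000 cells. No treatment or genotype other than the strain is given, and the labels neither describe the GFP reporter nor say whether animals were pooled. The labels call the replicates biological but name no separate animals, and p-values therefore cover only the spread between these samples, which may be technical.

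An imprint is a mark of DNA methylation at CpG dinucleotides that is set in the egg or the sperm and kept on 1 parental copy in the offspring. Imprinted genes lie in clusters, in which a control region governs several neighbours, often through a long noncoding RNA. Many of them regulate fetal growth and cell division, and several, among them Cdkn1c, Ndn, Dlk1 and the Igf2 and H19 pair, are known from mouse haematopoietic stem cells, where Cdkn1c restrains entry into the cell cycle. The arrays measure RNA from both copies together, so loss or gain of imprinting cannot be read from them.

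CLP_RAGlow replicate 2 stood apart on neutrophil genes, which were named after their values were seen. S100a8 had log2 intensities of 9.63 and 9.60 in CLP_RAGhigh, against 10.15 and 3.81 in CLP_RAGlow, and S100a9 and Ngp were likewise low on that array alone. Without that array the log2 differences, CLP_RAGhigh minus CLP_RAGlow, were -2.40 for Ndn, -1.47 for Cdkn1c and -1.56 for Igf2r.

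Ndn, Cdkn1c and Igf2r had the smallest p-values among the imprinted genes, and their measured levels were lower in CLP_RAGhigh than in CLP_RAGlow. The log2 differences were -2.51, -1.33 and -1.22. They shrank to -1.46 for Ndn, -0.45 for Cdkn1c and -0.58 for Igf2r after 32 was added to the linear intensities. Sgce had the largest difference in the other direction, at 1.20, with 0.31 for the average of its probe sets. Among members bright in both groups, Gnas, Nap1l4, Cd81 and Ube3a differed by at most 0.23 on the log2 scale in either direction. Others of these differed more, such as Ppp1r9a (-1.01), Copg2 (-0.68) and Impact (0.37), each with overlapping groups. None of the 38 genes passed limma's test across all genes at an adjusted p under 0.05.

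Over the whole array 0% of genes passed that threshold in either direction. At an unadjusted limma p under 0.05, 3 of the 38 imprinted genes were lower in CLP_RAGhigh (7.89%) against 2.94% of all genes, and 0 were higher against 2.35% of all genes. Both CLP_RAGhigh arrays lay below both CLP_RAGlow arrays for 10 imprinted genes (26.3%) against 15.8% of all genes, and above them for 3 (7.89%) against 15.4%. The median log2 difference of the imprinted genes, CLP_RAGhigh minus CLP_RAGlow, was -0.08, beside 0.00 for all genes, and the mean in CLP_RAGhigh was the lower one for 25 genes and the higher one for 13. Without CLP_RAGlow replicate 1 the median of the imprinted genes was 0.032, beside 0.04 for all genes. These shares describe the list and were not tested.

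**Figure D1:**
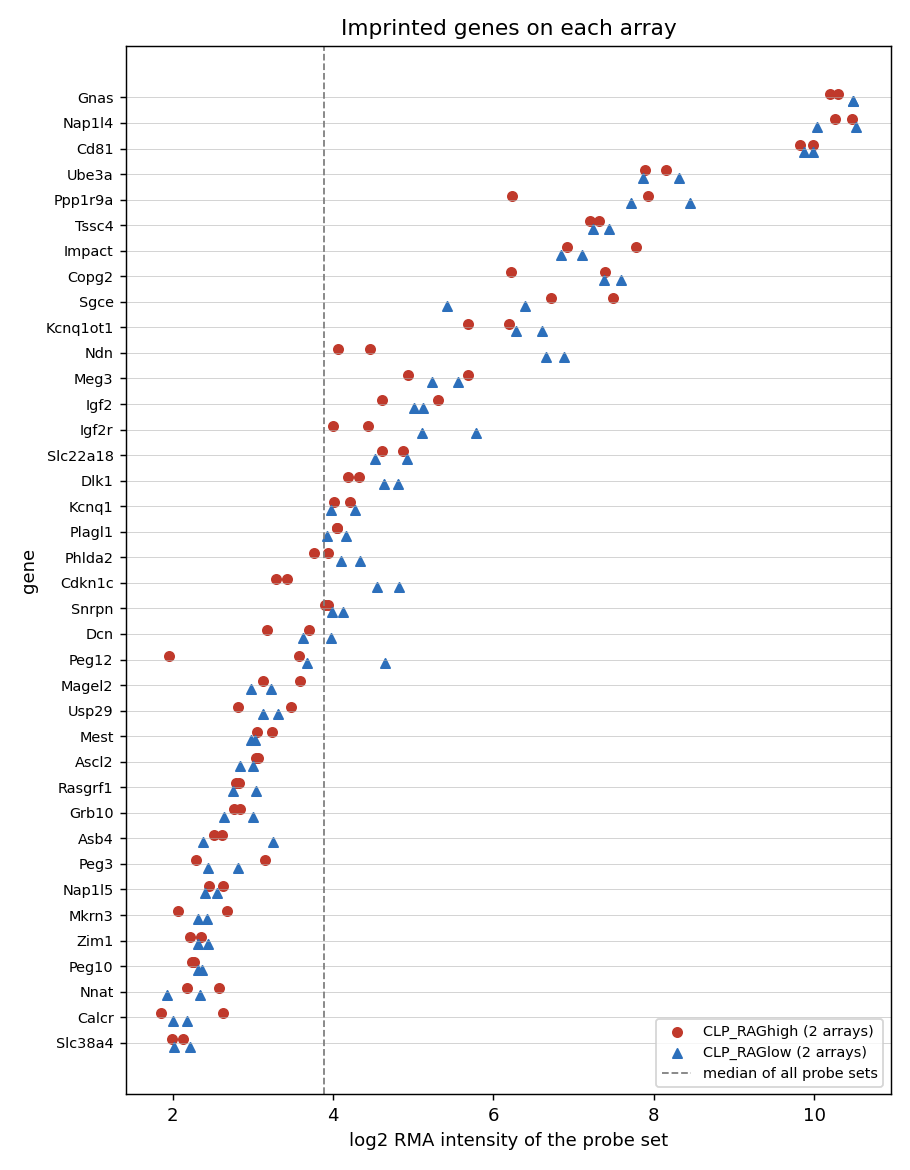
Each row is 1 of the 38 measured imprinted genes and each point 1 array, on the log2 scale of the deposited intensity. CLP_RAGhigh arrays are circles drawn above CLP_RAGlow arrays as triangles, and the dashed line marks 3.88, the median of all probe sets. Ndn, Cdkn1c and Igf2r show both circles left of both triangles, and for most other genes the symbols mix. Probe sets bind with different strength, so positions are comparable within a row and not between rows.

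Of the 38 genes, 22 had a mean at or above 3.88, the median log2 intensity of all probe sets, in at least 1 group. The other 16 were below it in both groups, and their differences ran from -0.36 to 0.26. RMA does not separate such values from background, and no detection calls were used here. A group mean below 3.88 is called dim. For genes dim in 1 group only, the printed difference is also given after 32 was added to the linear intensities. This offset damps differences near the background. Differences of genes dim in both groups are given without it.

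The cells were checked against markers of lymphoid progenitors. All 10 measured markers of that list, including Il7r, Flt3, Kit and Dntt, were above the median brightness in both groups. Of 12 measured myeloid markers, 11 also reached it in at least 1 group. The myeloid gene Mpo had 10.91 and 10.88 in CLP_RAGhigh, against 10.70 and 11.03 in CLP_RAGlow. Brightness above the median alone therefore does not tell these cell types apart. Rag1, the recombinase gene after which the groups are named, had log2 intensities of 10.92 and 10.62 in CLP_RAGhigh, against 7.72 and 8.53 in CLP_RAGlow. Median intensities of the arrays lay between 14.6 and 14.9, and the number of arrays limits the precision. The ratio of the 3' to the 5' probe set of Actb, which rises where the copied RNA is shorter, was 16.2 and 9.62 in CLP_RAGhigh and 13.5 and 24.5 in CLP_RAGlow.

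Ndn encodes necdin, a protein of the MAGE family that binds E2F1 and p53 and restrains cell growth. It is expressed from the paternal copy and belongs to the cluster whose loss in humans causes Prader-Willi syndrome. Its log2 intensity was 4.46 and 4.06 on the CLP_RAGhigh arrays, against 6.66 and 6.88 on the CLP_RAGlow arrays. Both CLP_RAGhigh arrays were thus low and close to each other, and the groups did not overlap. Ndn averaged 4.26 ± 0.28 in CLP_RAGhigh, against 6.77 ± 0.16 in CLP_RAGlow (mean ± SD of 2 arrays). The log2 difference was -2.51 ± 0.35 (SE), with a limma adjusted p of 0.301 over all genes. In bulk RNA, fewer cells that express a gene and less RNA per cell cannot be told apart.

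The array carried 8 probe sets for Ndn, and they did not give the same size of difference. Probe sets 1435383_x_at, 1435382_at and 1455792_x_at had differences of -5.06, -5.02 and -5.00, which were -2.35, -1.95 and -2.20 with the offset. The CLP_RAGhigh levels behind them, 1.60 to 2.23, are not separated from background, so the size of these differences is uncertain. On 1435382_at the log2 intensities were 1.73 and 1.60 in CLP_RAGhigh, against 6.36 and 7.01 in CLP_RAGlow, so that both CLP_RAGhigh values were below the median brightness and both CLP_RAGlow values above it. The probe set used above, 1437853_x_at, is of the kind that may bind related transcripts, and it was the only one of the 8 above the median brightness in CLP_RAGhigh.

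The remaining probe sets for Ndn were dimmer. Probe set 1415923_at had 1.72 and 2.21 in CLP_RAGhigh, against 3.24 and 5.95 in CLP_RAGlow. The last 3 stayed between 2.13 and 3.33 on all 4 arrays, with differences from -0.27 to 0.03, and thus showed signal in neither group. With probe sets that may cross-hybridise left out, Ndn had a difference of -5.02 and a limma adjusted p of 0.0565, and with all 8 averaged the difference was -2.57 with an adjusted p of 0.144. With the offset of 32 it was -1.46. Over all 11 alternatives the adjusted p ran from 0.0565 to 1.

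**Figure D2:**
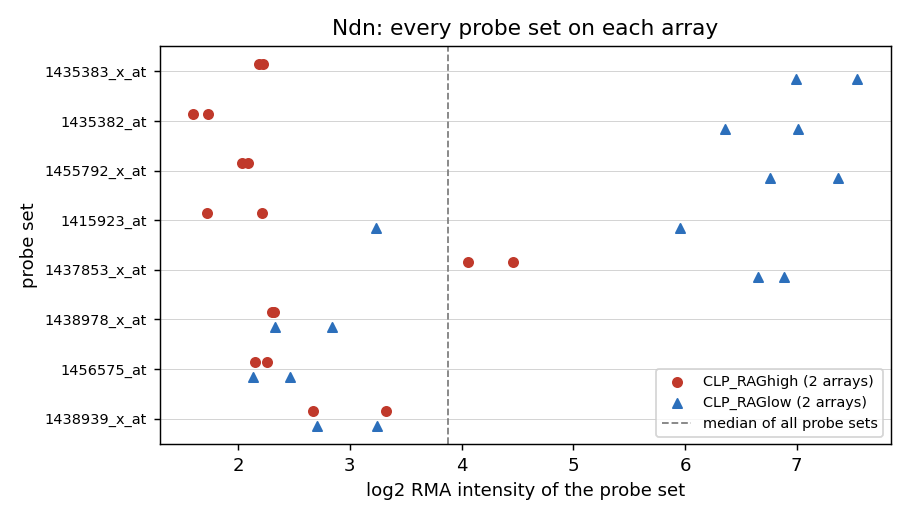
Each row is 1 of the 8 probe sets for Ndn and each point 1 array on the log2 intensity scale, with CLP_RAGhigh as circles above CLP_RAGlow as triangles. In 5 probe sets the CLP_RAGlow arrays lie to the right of the CLP_RAGhigh arrays with at least 1 of them past the dashed line, and in the other 3 all arrays stay below that line, which is at 3.88, the median of all probe sets.

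The neighbours of Ndn did not share 1 pattern. In the reference annotation Ndn, Magel2, Mkrn3 and Peg12 follow each other in this order with no protein-coding gene between them, and all are expressed from the paternal copy. Peg12, also called Frat3, belongs to the FRAT family, whose members bind the kinase GSK3 in Wnt signalling. Its log2 intensity was 1.96 and 3.58 in CLP_RAGhigh, against 3.68 and 4.65 in CLP_RAGlow. The groups did not overlap but nearly touched, and the CLP_RAGhigh arrays were far apart. The difference was -1.39 ± 0.59 (SE, n = 2 per group; -0.35 with the offset), with a limma adjusted p of 0.939, and it ran from -0.59 to -2.20 when 1 array was left out.

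Magel2, another MAGE family gene, and Mkrn3, which encodes a RING finger protein, were dim in both groups. Their values overlapped, with differences of 0.26 and 0.00. In the same cluster, Ube3a, a ubiquitin ligase expressed from the maternal copy in neurons and from both copies in most other cells, had 7.89 and 8.15 in CLP_RAGhigh, against 7.87 and 8.31 in CLP_RAGlow. Its difference was -0.07 ± 0.34 (SE), although its 5 dimmer probe sets differed by 0.04 to 1.24. Snrpn, which encodes a spliceosomal protein, was measured here by 1 probe set near the median brightness, with 3.90 and 3.93 in CLP_RAGhigh, against 4.12 and 3.99 in CLP_RAGlow. The difference was -0.14 ± 0.24, and 6 further probe sets annotated to Snrpn and Snurf together were not used.

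The start regions of Ndn, Peg12 and Igf2r are printed to show their CpG dinucleotides, the sites at which DNA is methylated. Whether these regions hold an imprint was not examined, and the control regions of the clusters are not printed. They were picked after the values were seen, as the members with a start window whose difference was below -1 and whose groups did not overlap. Each runs from 250 bases before to 50 bases after the annotated start of transcription, read 5′ to 3′ on the strand of the gene, from RefSeq on GRCm38.p6, with every CG in capitals.
Ndn, chr7:62348027-62348326, plus strand: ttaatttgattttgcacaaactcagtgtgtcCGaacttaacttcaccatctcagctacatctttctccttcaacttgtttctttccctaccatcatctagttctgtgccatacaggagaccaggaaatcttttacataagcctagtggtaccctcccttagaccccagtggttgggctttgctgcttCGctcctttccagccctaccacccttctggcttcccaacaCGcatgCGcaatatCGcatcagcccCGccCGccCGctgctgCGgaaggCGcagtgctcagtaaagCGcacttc
Peg12, chr7:62464461-62464760, minus strand: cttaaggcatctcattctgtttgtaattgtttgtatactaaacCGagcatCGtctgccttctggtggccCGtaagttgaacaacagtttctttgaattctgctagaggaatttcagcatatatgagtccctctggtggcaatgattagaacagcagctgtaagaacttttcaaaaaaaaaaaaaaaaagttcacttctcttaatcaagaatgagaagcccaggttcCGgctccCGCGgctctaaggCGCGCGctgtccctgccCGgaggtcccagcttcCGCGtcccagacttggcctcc
Igf2r, chr17:12769657-12769956, minus strand: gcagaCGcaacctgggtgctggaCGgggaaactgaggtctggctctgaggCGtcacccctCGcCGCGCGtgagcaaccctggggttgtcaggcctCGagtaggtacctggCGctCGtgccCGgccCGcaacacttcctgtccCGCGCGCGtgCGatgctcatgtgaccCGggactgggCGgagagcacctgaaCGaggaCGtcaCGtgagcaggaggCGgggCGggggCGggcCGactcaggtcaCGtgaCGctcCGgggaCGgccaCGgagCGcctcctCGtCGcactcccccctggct
The Ndn window holds 11 CG, the Peg12 window 12 and the Igf2r window 34. As many or more were found in 41.4%, 39.6% and 7.73% of the 32851 start windows of the same length. In Ndn and Peg12 the CG lie mostly in the last part of the window, near the start. The count is a feature of the sequence and says nothing of methylation in these cells. Windows were found for 31 of the 39 listed genes.

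Cdkn1c encodes the inhibitor p57 of cyclin-dependent kinases and is expressed from the maternal copy in the Kcnq1 cluster. Its log2 intensity was 3.29 and 3.43 in CLP_RAGhigh, against 4.82 and 4.55 in CLP_RAGlow. The arrays within each group lay close together and the groups did not overlap. Cdkn1c averaged 3.36 ± 0.10 in CLP_RAGhigh, against 4.69 ± 0.20 in CLP_RAGlow (mean ± SD of 2 arrays). The difference was -1.33 ± 0.26 (SE), with a limma adjusted p of 0.528. Since the gene was dim in CLP_RAGhigh, the size depends on the background, and with the offset the difference was -0.45. The array holds 1 probe set for Cdkn1c.

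Other genes of the Kcnq1 cluster differed less. Phlda2, which restrains placental growth, had 3.77 and 3.93 in CLP_RAGhigh, against 4.33 and 4.10 in CLP_RAGlow, a difference of -0.37 ± 0.26 (-0.12 with the offset). Its groups did not overlap. Kcnq1ot1, the noncoding RNA that silences the cluster on the paternal copy, had 6.20 and 5.69 in CLP_RAGhigh, against 6.29 and 6.61 in CLP_RAGlow, and its groups also did not overlap. Its difference was -0.51 ± 0.38, but over its 6 probe sets the difference lay between -0.51 and 0.75, with 0.07 for their average.

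The tetraspanin gene Cd81 had 9.82 and 9.99 in CLP_RAGhigh, against 9.99 and 9.87 in CLP_RAGlow, and Nap1l4, which encodes a histone chaperone, had a difference of 0.09 ± 0.23. Tssc4, the transporter gene Slc22a18 and the potassium channel gene Kcnq1 had differences of -0.08, 0.02 and -0.02, with overlapping groups. Ascl2, a transcription factor of the placenta and intestinal stem cells, was dim in both groups. Of the 9 listed genes of this cluster, 1, Cdkn1c, was lower at an unadjusted limma p under 0.05 (11.1%, against 2.94% of all genes). Both CLP_RAGhigh arrays lay below both CLP_RAGlow arrays for 3 (33.3%, against 15.8% of all genes) and above them for 1 (11.1%, against 15.4%). Among all 38 imprinted genes, those with separate groups that were not dim in both included Ndn, Cdkn1c, Igf2r, Sgce and Peg12. The others of this kind, Dlk1, Phlda2, Gnas, Kcnq1ot1 and Snrpn, all had limma adjusted p-values of 0.979 or more.

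Igf2r encodes the receptor that takes up and degrades IGF2 and carries lysosomal enzymes by their mannose 6-phosphate tag. It is expressed from the maternal copy. Its log2 intensity was 4.001 and 4.43 in CLP_RAGhigh, against 5.78 and 5.10 in CLP_RAGlow, with no overlap between the groups. Igf2r averaged 4.22 ± 0.31 in CLP_RAGhigh, against 5.44 ± 0.48 in CLP_RAGlow (mean ± SD of 2 arrays). The difference was -1.22 ± 0.37 (SE), with a limma adjusted p of 0.842. The second probe set for Igf2r had a difference of -0.67 with the same order of arrays, and with the offset the first gave -0.58. The unadjusted limma p was 0.0182, and it was 0.0964 without CLP_RAGhigh replicate 1 and 0.112 without CLP_RAGlow replicate 1.

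The ligand of this receptor, the fetal growth factor Igf2, had 4.60 and 5.30 in CLP_RAGhigh, against 5.13 and 5.01 in CLP_RAGlow, and the groups overlapped. Its second probe set stayed between 1.85 and 2.12 on all 4 arrays. Grb10, an adaptor that binds the insulin and IGF1 receptors and restrains growth, was dim in both groups with a difference of -0.02. On the probe sets used for Igf2r, Igf2 and Grb10, the groups were separate for Igf2r and overlapped for the other 2.

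Sgce encodes epsilon-sarcoglycan, a membrane protein related to the dystrophin complex, and is expressed from the paternal copy beside Peg10. Its log2 intensity was 6.72 and 7.49 in CLP_RAGhigh, against 5.42 and 6.39 in CLP_RAGlow. The groups did not overlap, although the arrays within each group were spread. The difference was 1.20 ± 0.50 (SE, n = 2 per group) with a limma adjusted p of 0.935. The second probe set for Sgce went the other way, at -0.59, and the average of both gave 0.31.

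The other genes of the Peg10 cluster did not follow Sgce. Peg10, a gene of retrotransposon origin needed in the placenta, shares its start region with Sgce and was dim on all 4 arrays, with values of 2.25 and 2.26 in CLP_RAGhigh, against 2.36 and 2.32 in CLP_RAGlow. Ppp1r9a, which encodes the actin-binding protein neurabin, had 7.92 and 6.24 in CLP_RAGhigh, against 7.71 and 8.46 in CLP_RAGlow. The low value on CLP_RAGhigh replicate 2 gave most of its difference of -1.01 ± 0.63, and its 5 probe sets ran from -1.58 to 1.30. The ankyrin repeat gene Asb4 and the calcitonin receptor gene Calcr were dim in both groups.

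In the Dlk1 and Meg3 cluster, Dlk1, which encodes a membrane protein related to the Notch ligands, had 4.19 and 4.33 in CLP_RAGhigh, against 4.80 and 4.64 in CLP_RAGlow. The groups did not overlap, and the difference was -0.46 ± 0.28 (-0.19 with the offset). Its second probe set was dim with -0.20. The noncoding RNA Meg3, expressed from the maternal copy, had 4.93 and 5.68 in CLP_RAGhigh, against 5.56 and 5.23 in CLP_RAGlow, and its 11 probe sets had differences between -0.22 and 0.33. A difference in Meg3 was not detectable with these arrays.

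Gnas, which encodes the stimulatory G protein alpha subunit and several other transcripts with different parental origin, had 10.29 and 10.20 in CLP_RAGhigh, against 10.48 and 10.48 in CLP_RAGlow. The groups separated by a small step, -0.23 ± 0.18, and the 4 other probe sets, all dim, ran from -0.55 to 0.11. Impact, which restrains the kinase GCN2, had 7.78 and 6.92 in CLP_RAGhigh, against 7.11 and 6.85 in CLP_RAGlow. All 3 of its probe sets had positive differences, from 0.37 to 0.54, with overlap on the one used. Copg2, a coat protein of Golgi vesicles, had a difference of -0.68 ± 0.49, which rested on a low value of 6.22 on CLP_RAGhigh replicate 2.

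The remaining members were near or below the median brightness with small differences. The zinc finger gene Plagl1, a regulator of other imprinted genes, had a difference of 0.01. In the Peg3 cluster all 3 genes, Peg3, Zim1 and Usp29, were dim in both groups, with differences between -0.09 and 0.10. Mest, Nnat, Rasgrf1, Nap1l5, Slc38a4 and Dcn were likewise dim, and their differences ran from -0.36 for Dcn to 0.24 for Nnat.

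**Figure D3:**
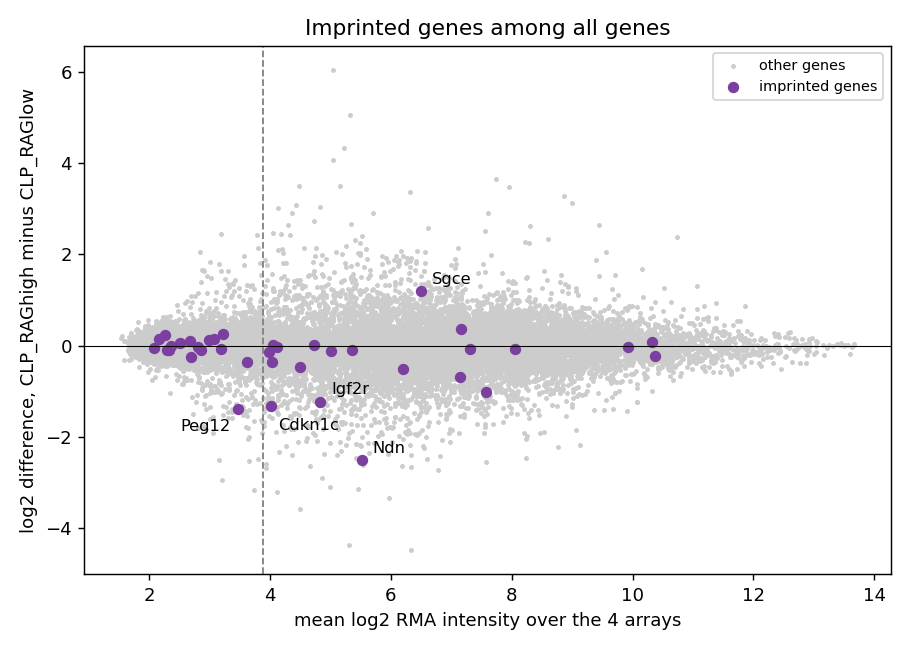
Each point is 1 of the 18193 genes, purple for the 38 imprinted genes and grey for the others, with the mean log2 intensity over the 4 arrays on the horizontal axis and the log2 difference, CLP_RAGhigh minus CLP_RAGlow, on the vertical axis. Ndn, Cdkn1c, Igf2r and Peg12 lie at or below -1.22, Sgce lies at 1.20, and most other imprinted genes lie near the zero line. The dashed line marks 3.88, the median of all probe sets.

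By parental origin, 19 listed genes are expressed mainly from the paternal and 19 from the maternal copy, at least in some tissues, and Gnas depends on the transcript. All 19 paternally expressed genes were measured, and the CLP_RAGhigh mean was lower for 10 and higher for 9, with a median difference of -0.055. For the 18 maternally expressed genes measured it was lower for 14 and higher for 4, with a median of -0.08. Some of the 14 differences were small, such as -0.02 for Kcnq1 and Grb10 and -0.03 for Cd81. Over all 18193 genes the mean was lower for 8968 and higher for 9182, and the counts were not tested. Ndn is paternally and Cdkn1c and Igf2r are maternally expressed, so the genes at an unadjusted p under 0.05 came from both classes.

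A broader list of 58 genes reported as imprinted in mouse, some only in placenta and some disputed, was compared in the same way. Of 47 measured, 5 were lower in CLP_RAGhigh at an unadjusted limma p under 0.05 (10.6%, against 2.94% of all genes) and 1 was higher (2.13%, against 2.35%), and the median difference was 0.00. No gene passed across all genes. Gatm, an enzyme of creatine synthesis, had 3.08 and 3.76 in CLP_RAGhigh, against 5.56 and 5.48 in CLP_RAGlow, a difference of -2.10 ± 0.34 (-0.86 with the offset) with a limma adjusted p of 0.403. The groups were far apart, but Gatm was dim in CLP_RAGhigh.

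Pon3, a paraoxonase gene of the Peg10 cluster, had a difference of -1.49 ± 0.35 (-0.54 with the offset). Atp10a, a lipid flippase gene near Ube3a, had 7.44 and 7.74 in CLP_RAGhigh, against 8.71 and 8.77 in CLP_RAGlow, and all 4 of its probe sets had negative differences. Trappc9 had -1.10 ± 0.36, which was -0.20 with its 3 probe sets averaged. Tfpi2, named after its values were seen, was dim in both groups. Osbpl5, an oxysterol-binding protein gene beside the Kcnq1 cluster, was the higher one, with 7.27 and 7.23 in CLP_RAGhigh, against 6.06 and 5.77 in CLP_RAGlow.

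Genes that set or keep imprints gave no call. Of 29 measured, 0 had an unadjusted limma p under 0.05 in either direction, the median difference was -0.02, and 2 had both CLP_RAGhigh arrays above (6.9%, against 15.4% of all genes) and 0 below (against 15.8%). Uhrf1, which brings the maintenance methyltransferase to newly copied DNA, had 8.96 and 9.20 in CLP_RAGhigh, against 8.57 and 8.50 in CLP_RAGlow. Dnmt1, that methyltransferase, had 10.03 and 10.88 in CLP_RAGhigh, against 10.92 and 10.71 in CLP_RAGlow, with overlap. Zfp445, a zinc finger protein that binds imprint control regions, differed by 0.48 ± 0.34, with overlapping groups. Tet2, an enzyme that oxidises methylated cytosine, and Arid4b had differences of -1.97 ± 1.63 and -0.83 ± 0.69, in each case with a low value on CLP_RAGhigh replicate 2.

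Partners of the imprinted growth genes differed in both directions. Of 25 measured, 2 were higher and 2 lower in CLP_RAGhigh at an unadjusted limma p under 0.05 (8% each, against 2.35% and 2.94% of all genes), and 0 passed across all genes. Irs1, an adaptor of the insulin and IGF1 receptors, had 2.92 and 1.84 in CLP_RAGhigh, against 5.76 and 4.06 in CLP_RAGlow, a difference of -2.53 ± 0.63 (-0.79 with the offset). Its relative Irs2 had 5.12 and 5.83 in CLP_RAGhigh, against 4.22 and 4.33 in CLP_RAGlow. The measured difference of Irs2 was 1.20 ± 0.36, and neither gene passed, with limma adjusted p-values of 0.703 for Irs1 and 0.827 for Irs2.

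Cdkn1a, which encodes the kinase inhibitor p21 of the same family as p57, had 8.37 and 8.27 in CLP_RAGhigh, against 7.34 and 6.97 in CLP_RAGlow, a difference of 1.17 ± 0.34 that is opposite to that of Cdkn1c. Both of its probe sets were higher in CLP_RAGhigh. Nsmce1, which encodes a subunit of the SMC5/6 complex that pairs with MAGE family proteins, had -1.002 ± 0.33 (-0.49 with its probe sets averaged). Cdk6, a kinase of the G1 phase, had 0.62 ± 0.29.

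Markers of other cell types and states were read on the same arrays. For 13 of 17 measured markers of haematopoietic stem cells the CLP_RAGhigh mean was lower, and for 7 (41.2%, against 15.8% of all genes) both CLP_RAGhigh arrays were below both CLP_RAGlow arrays. Their summed linear intensity was 3900 and 3120 in CLP_RAGhigh, against 5170 and 4680 in CLP_RAGlow. The brightest of these markers, Hoxa9, made up a large part of each sum. Its log2 intensity was 11.23 and 10.60 in CLP_RAGhigh, against 11.48 and 11.26 in CLP_RAGlow. Cd34 and Gfi1b had differences of -1.12 ± 0.32 and -1.94 ± 0.37. Hlf had 5.66 and 6.63 in CLP_RAGhigh, against 7.66 and 6.78 in CLP_RAGlow, with separate groups. Meis1 had a difference of 0.37, with overlapping groups. The markers Slamf1, Procr, Fgd5, Hoxb5, Tek, Vwf and Ctnnal1 were dim in both groups and Mecom was dim in CLP_RAGhigh. The part of the stem cell markers in the values of Ndn, Cdkn1c and Igf2r was not tested.

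For 17 of 19 cell cycle genes of G2 and mitosis the CLP_RAGhigh mean was lower, and their summed linear intensity was 2720 and 5930 in CLP_RAGhigh, against 6830 and 11000 in CLP_RAGlow. For 10 of them (52.6%, against 15.8% of all genes) the groups separated downward. Genes of B cells had a higher mean in CLP_RAGhigh for 10 of 11, with a sum of 7940 and 5670, against 1700 and 2110 in CLP_RAGlow. Their part in the values of the imprinted genes was not tested either.

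Markers of stromal and endothelial cells, which express Dcn, Igf2 and Dlk1 in other settings, summed to 549 and 658 in CLP_RAGhigh, against 660 and 725 in CLP_RAGlow. Of these 16 genes 10 were dim in both groups, among them Col1a1, Col3a1, Lum, Cdh5 and Kdr, and the median difference was 0.02. Pdgfrb alone made up 366 and 435 of the sum in CLP_RAGhigh and 462 and 508 in CLP_RAGlow. The other 15 genes summed to 183 and 222 in CLP_RAGhigh, against 198 and 217 in CLP_RAGlow.

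Erythroid markers summed to 834 and 369 in CLP_RAGhigh, against 609 and 386 in CLP_RAGlow, myeloid markers to 4300 and 4500, against 6260 and 3290, and plasmacytoid and natural killer markers to 1460 and 2430, against 2210 and 2820. The sums of the groups overlapped for each of these 3 lists, while single genes did not all overlap. Klf1, an erythroid transcription factor, had a difference of 2.02 ± 0.62 with both CLP_RAGhigh arrays above, and Csf1r, the receptor of macrophage colony-stimulating factor, one of -1.90 ± 0.52 with both below.

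**Figure D4:**
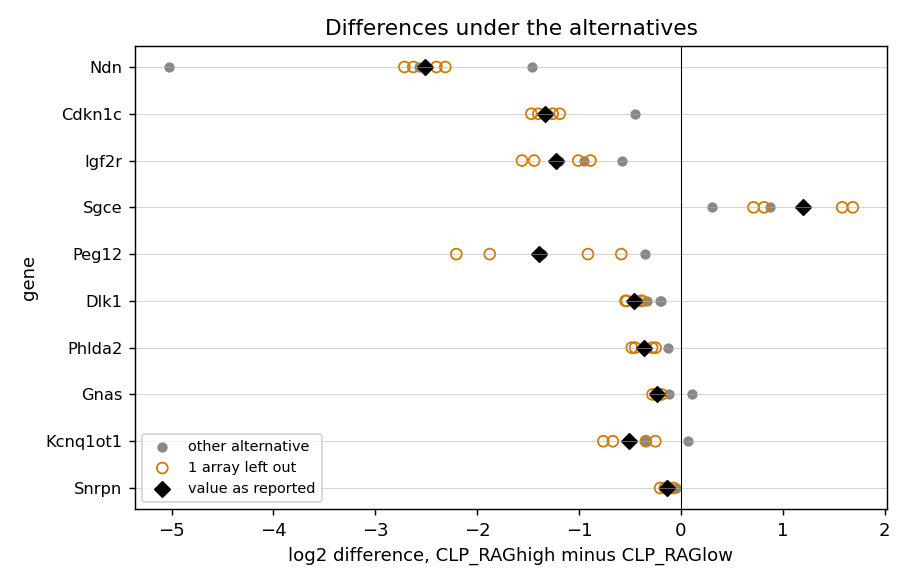
Each row is 1 of the 10 imprinted genes described with the value on every array, and the horizontal axis is the log2 difference, CLP_RAGhigh minus CLP_RAGlow. Black diamonds are the values as reported, open orange circles leave out 1 array each and grey points are the other alternatives. Ndn, Cdkn1c, Igf2r and Peg12 stay left of zero and Sgce right of zero in every alternative drawn, while Gnas and Kcnq1ot1 cross zero once each.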

How the data were processed

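Each sample is amplified RNA of 2000 sorted cells on 1 MOE430_2 array (Affymetrix), as the series design states. The deposited intensity values are RMA values per probe set, per the labels' series design. RMA corrects background, normalizes between arrays and summarises probes. The software is not given in the sources used here. The intensities ran from 2.35 to 19893, so they are linear, and log2 values were computed from them.

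Of 45037 probe sets without controls, 34945 were annotated to 1 gene, 932 to several and 9160 to none, by the platform annotation of GEO, and only the first kind was used. It gave 18193 genes, each by its brightest probe set. The comparison was fitted in R 4.3.3 by limma 3.58.1, with the variance prior following the mean level (2 residual and 3.75 prior degrees of freedom). Its p-values are two-sided and adjusted by the Benjamini-Hochberg method across the 18193 genes. The fit was tested on simulated data. Figures were drawn with matplotlib 3.10.9. The members, the other lists and the tests were chosen with earlier results of these data known. Genes are given in full where they had an unadjusted p under 0.05 or separate groups and were not dim in both groups, the others by range. From the other lists of imprinting and growth genes up to 5, and from marker lists up to 3, were to be named by smallest p. Values of markers beyond these were named for their role. Alternatives covered the choice of probe sets, an offset of 32, a brightness filter, quantile normalization, the variance trend, the replicate block and leaving out each array.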

Additional observations from a re-analysis of the deposited data

How the results depend on the processing

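The count of imprinted genes at an adjusted limma p under 0.05 was 0 under all 11 alternatives tried. Over all genes the count of 0 became 2 with probe sets averaged (Pou2af1 and Gpat3), 1 without genes below the median brightness (Pou2af1), 3 with a second quantile normalization (Pou2af1, Gpat3 and Matn2) and 7 with the replicate block. The replicate numbers do not pair the samples by any label, and the deviations of same-numbered arrays correlated at -0.02. With the block, 4 imprinted genes were lower at an unadjusted p under 0.05, Peg12 being added, and 1 was higher, Sgce, against 3.14% and 2.48% of all genes.

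When 1 array was left out, between 2 and 4 imprinted genes were lower at an unadjusted p under 0.05 and between 0 and 1 higher, against 1.8% to 4.56% and 1.16% to 4.42% of all genes. Between 13 and 22 of the 38 (34.2% to 57.9%) separated downward and 5 to 13 (13.2% to 34.2%) upward, against 27.0% to 39.7% and 27.0% to 40.9% of all genes, since more genes separate with fewer arrays. The median difference ran from -0.17 to 0.032, the highest without CLP_RAGlow replicate 1, against -0.05 to 0.05 for all genes. With 1 array in a group, that array is assumed to vary like the others. Without genes below the median brightness, 3 of the 21 imprinted genes left were lower at an unadjusted limma p under 0.05 and 0 higher. Of the 11576 genes left, 3.72% were lower and 3.04% higher. Among the 22 imprinted genes not dim in both groups, 9 (40.9%) separated downward and 1 (4.55%) upward. For all genes chosen by that rule the shares were 17.7% and 16.8%, and none of these shares was tested. A gene can pass that rule through its higher group alone. Among the 9, Cdkn1c, Peg12 and Phlda2 were dim in CLP_RAGhigh and passed only through CLP_RAGlow. The shares under that rule therefore give no support for a difference of the list. Over the 10 genes described in full, 2 of 109 differences turned sign, Gnas to 0.11 without probe sets that may cross-hybridise and Kcnq1ot1 to 0.07 with probe sets averaged. The value for Gnas then came from 1453413_at, which was dim on all 4 arrays, at 3.13 to 3.34. The average for Kcnq1ot1 took in 5 other probe sets, with differences from -0.44 to 0.75. Ndn and Cdkn1c had an unadjusted limma p under 0.05 in every alternative, and Igf2r in all but those without CLP_RAGhigh replicate 1 and without CLP_RAGlow replicate 1. The signal of dim genes over background limits the size of their differences.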

Other observations

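Probe sets annotated to several genes were left out of the comparison. Of those annotated to Snurf and Snrpn together, which share a transcript, 1415895_at had log2 intensities of 8.87 and 8.99 in CLP_RAGhigh, against 8.92 and 9.01 in CLP_RAGlow. The probe set annotated to H19 and Mir675 together was dim on all 4 arrays, with 3.13 and 3.22 in CLP_RAGhigh, against 3.50 and 2.71 in CLP_RAGlow.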
